A study of Mus musculus with 22 samples.

Results

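Gene expression in mammary tissue was compared between wheel-running mice given clodronate liposomes and wheel-running mice given PBS liposomes, 24 hours after mammary cancer cells were engrafted. The comparison used 11 of the 22 mice of the experiment, 5 with clodronate and 6 with PBS. It covered the 13612 genes, of 52526 distinct symbols listed, that were above 1 CPM in at least 5 of these 11 mice, where CPM is a read count divided by the depth of its library. All mice were female C57BL/6J, an inbred strain, and were 7 to 8 weeks old. All had a running wheel in the home cage for 2 weeks, and then received 100000 EO771 cells in the left mammary fat pad. EO771 is a mammary cancer line of the same strain, and these cells carried firefly luciferase. Liposomes holding PBS or clodronate were injected intravenously 24 hours before engraftment and again at engraftment, and the wheel stayed in place until the tissue was taken. The groups therefore shared the wheel, the cancer cells and the liposome injections, and differed by what the liposomes held. The labels give the same catalogue number for both kinds of liposome, so the groups rest on the treatment that the labels name. The other 11 mice, 6 with PBS and 5 with clodronate liposomes, had the hub of the wheel alone and enter only the comparison with sedentary mice. Mice are named here by liposome and by the replicate number of the labels.

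Clodronate is a bisphosphonate drug that crosses cell membranes poorly by itself. Macrophages and other phagocytes engulf the liposomes and break them down in lysosomes, and the released drug is turned into an ATP analogue that kills the cell. Liposomes with PBS are engulfed in the same way without this toxicity, and so serve as the control. The mammary fat pad is mostly adipocytes, with epithelial ducts, fibroblasts, vessels and resident macrophages, and a lymph node lies within it. Each library was made from the whole dissected tissue, with the engrafted cells in it. In such bulk samples, fewer cells of a type and less RNA per cell cannot be told apart.

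The 11 libraries held 13314092 to 18771385 reads. Values under 1 CPM had been raised to 1 by the authors, which hides up to 13 to 18 reads of a gene listed at this floor. Reads assigned to genes made up 58.0 ± 0.493% (SD, n = 5) with clodronate and 60.9 ± 2.16% (SD, n = 6) with PBS, a difference in this share of -2.93 percentage points (exact two-sided permutation test over 462 splits, p = 0.0152, or 0.121 after adjustment over 8 library measures). Total reads differed by less than the spread between mice (exact permutation p = 0.273, adjusted 0.364). The tissue label was checked with marker lists, each summarised as a score per mouse. The score is the mean of log2(CPM + 1) over the genes of the list that were among the 13612. Adipocyte markers were abundant in every mouse (scores of 8.41 to 9.63) and mammary epithelial markers were present in every mouse (4.20 to 5.86). Among mice on the wheel, 4 libraries stood apart for lymphoid genes. Clodronate mice 3, 4 and 5 and PBS mouse 3 had B cell scores of 5.23 to 6.79 and T cell scores of 4.38 to 5.50, where the other 7 mice reached at most 1.91 and 1.5. These 4 are called lymphoid-rich below, and results that touch them are also given without them, for 2 clodronate and 5 PBS mice. They were chosen by B and T cell scores over all listed genes in the data, at least 4.78 and 4.18 in these 4. The other 7 had at most 1.52 and 1.45. Clodronate mouse 2 had a skeletal muscle score of 9.47, where the other 10 mice reached at most 5.87.

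No gene passed the test. With limma and Benjamini-Hochberg adjustment over the 13612 genes, 0 genes (0%) had an adjusted p under 0.05 in either direction, and the smallest adjusted p was 0.170. At an unadjusted p under 0.05 there were 612 genes with a higher mean with clodronate (4.5% of all tested) and 818 with a lower mean (6.01%). For 53 genes every clodronate mouse was above every PBS mouse (0.389%), and for 138 every clodronate mouse was below every PBS mouse (1.01%). Over all genes tested, the median difference was 0.00 on the log2(CPM + 1) scale, and 49.5% of genes had a higher mean with clodronate. All differences are given as clodronate minus PBS on this scale, which understates the difference of genes near the floor. The split of genes at an unadjusted p under 0.05 depended on scaling. It held 42.8% with a higher mean on the deposited scale, 58.07% after scaling to equal upper quartiles and 59.44% after scaling to reads assigned to genes. These 2 scalings moved the median of all genes by less than 0.1, and the share was 31.59% without the lymphoid-rich mice.

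The genes with the smallest p among those with a lower mean were Ppp2r5a, Loxl1, Dab2, Col6a3, Angptl2, Maged1, Ywhag, Afap1, Fbn1 and Pf4, with adjusted p from 0.170 to 0.192. Ppp2r5a, on chromosome 1 (191351975 to 191403272) of GRCm38 (positions are those of the GENCODE M21 annotation), encodes a regulatory subunit of the phosphatase PP2A. It had 185, 138, 144, 189 and 206 CPM in clodronate mice 1 to 5, and 267 to 415 CPM (median 320.2) in the PBS mice, a difference of -0.93 (SE 0.15, adjusted p = 0.170). Ywhag, a 14-3-3 adaptor protein gene on chromosome 5 (135908409 to 135934616), had 223, 173, 184, 239.9 and 209.6 CPM with clodronate and 307 to 520.3 CPM (median 325) with PBS, a difference of -0.80 (SE 0.15, adjusted p = 0.171). For both genes the groups did not overlap. Maged1, a MAGE family gene on chromosome X (94535474 to 94542143), had 43.7, 34.2, 38.0, 47.9 and 44.3 CPM with clodronate and 56.4 to 97.2 CPM (median 79.6) with PBS (-0.87 (SE 0.16, adjusted p = 0.170)), again with no overlap.

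Loxl1, a lysyl oxidase relative that cross-links elastin, lies on chromosome 9 (58287738 to 58313186). Its values were 38.0, 29.1, 26.7, 19.9 and 28.0 CPM with clodronate and 48.3 to 59.5 CPM (median 54.1) with PBS, a difference of -0.92 (SE 0.16, adjusted p = 0.170). Col6a3, a chain of the collagen VI that surrounds adipocytes and muscle fibres, lies on chromosome 1 (90765923 to 90843971). It had 62.1, 57.2, 60.6, 33.7 and 79.3 CPM with clodronate, the lowest in mouse 4, and 97.6 to 157 CPM (median 132) with PBS (-1.14 (SE 0.21, adjusted p = 0.170)). Fbn1, the microfibril protein fibrillin, lies on chromosome 2 (125300594 to 125507993) and had 16.2, 13.9, 17.3, 14.1 and 30.6 CPM with clodronate and 30.6 to 53.4 CPM (median 39.1) with PBS (-1.12 (SE 0.23, adjusted p = 0.192)). Only for Fbn1 among the 10 did the groups overlap, and there by clodronate mouse 5 alone. Angptl2, a secreted angiopoietin-like protein gene on chromosome 2 (33216069 to 33247717), had 36.8, 33.8, 43.0, 34.7 and 40.2 CPM with clodronate and 53.6 to 74.1 CPM (median 61.8) with PBS (-0.74 (SE 0.14, adjusted p = 0.170)). Its 3′ end overlaps Ralgps1 in the annotation, and 3′ reads of overlapping genes can be mistaken for each other where the counting does not use strand.

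Dab2 and Pf4 are both expressed by resident macrophages, among other cells. Dab2, a clathrin adaptor used in endocytosis, lies on chromosome 15 (6299788 to 6440712). It had 18.1, 20.8, 25.4, 16.5 and 23.9 CPM in clodronate mice 1 to 5 and 34.2 to 48.1 CPM (median 39.5) in the PBS mice, a difference of -0.94 (SE 0.17, adjusted p = 0.170). Pf4 encodes the chemokine CXCL4, stored in platelets and expressed by resident macrophages, and lies on chromosome 5 (90772435 to 90773383). Its values were 7.58, 11.5, 19.1, 12.3 and 17.3 CPM with clodronate and 21.3 to 40.4 CPM (median 32.5) with PBS, a difference of -1.21 (SE 0.25, adjusted p = 0.192). Every clodronate mouse was below every PBS mouse for both genes. The lowest value was in lymphoid-rich mouse 4 for Dab2 and in mouse 1 for Pf4, and without the lymphoid-rich mice the differences were -0.99 for Dab2 and -1.56 for Pf4. Afap1, an actin filament linker gene on chromosome 5 (35893319 to 36003923), had 34.2, 22.8, 25.9, 20.8 and 36.3 CPM with clodronate and 46.3 to 64.1 CPM (median 49.8) with PBS (-0.89 (SE 0.17, adjusted p = 0.192)).

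**Figure D1:**
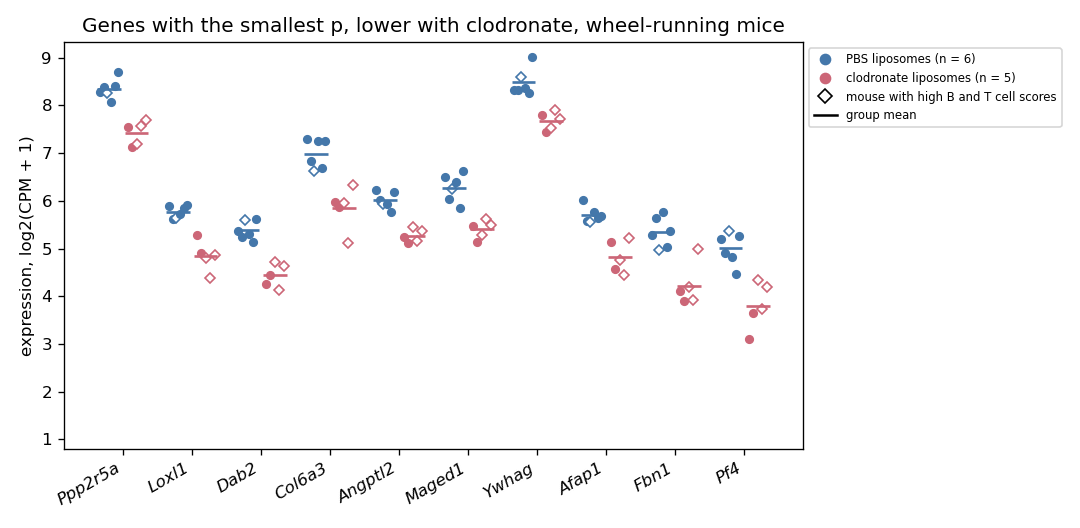
Expression of the 10 genes with the smallest p among those lower with clodronate, as log2(CPM + 1) on the vertical axis, 1 point for each wheel-running mouse (5 with clodronate in red, 6 with PBS in blue), with bars at the group means and open diamonds for the 4 mice with high B and T cell scores. The red points lie below the blue points for every gene but Fbn1, where clodronate mouse 5 (30.6 CPM) reaches the lowest PBS mouse (30.6 CPM).

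Macrophage genes gave no common direction over all mice. The macrophage and monocyte list was chosen to mark cells that engulf liposomes. All 24 of its genes were tested and 0 passed. At an unadjusted p under 0.05, 1 (Spi1) had a higher mean and 1 (Ccr2) a lower mean, where 4.5% and 6.01% of all genes tested did. The median difference of the list was 0.07, against 0.00 over all genes tested. The score was 3.59, 3.58, 5.10, 5.09 and 5.06 in clodronate mice 1 to 5 and 3.60 to 5.30 in the PBS mice. Without 1 mouse the median ranged from -0.20 (without clodronate mouse 3) to 0.30 (without clodronate mouse 1). The 3 lymphoid-rich clodronate mice lay near the highest PBS mice, and the other 2 clodronate mice at the lowest PBS mouse. Without the 4 lymphoid-rich mice, 22 of the 24 genes had a lower mean with clodronate, with a median of -0.80 against -0.10 over all genes. The median was -0.59 with the B cell score as a covariate and -0.40 with the adipocyte score. With the muscle score as a covariate it was 0.41, the other direction. No gene passed in those fits. The fit without the lymphoid-rich mice has only 2 clodronate mice, mouse 1 and mouse 2, and mouse 2 had the skeletal muscle score of 9.47.

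Adgre1, which encodes the F4/80 antigen of mouse macrophages, had 2.27, 4.29, 9.84, 9.11 and 11.8 CPM in clodronate mice 1 to 5 and 4.28 to 20.1 CPM (median 10.3) in the PBS mice, a difference of -0.52 (SE 0.42, adjusted p = 0.703). Csf1r, the receptor for the growth factor that maintains macrophages, had 20.7, 30.1, 61.4, 59.3 and 48.7 CPM with clodronate and 30.2 to 66.0 CPM (median 51.9) with PBS (-0.19 (SE 0.30, adjusted p = 0.870)). For both, clodronate mice 1 and 2 were the lowest of the clodronate group, and mouse 1 lay below every PBS mouse. Cd68, a lysosomal glycoprotein of phagocytes, had 3.24, 6.85, 19.7, 20.6 and 15.6 CPM with clodronate and 3.52 to 36.3 CPM (median 9.06) with PBS (0.19 (SE 0.54, adjusted p = 0.931)). C1qa, a subunit of the complement protein C1q that macrophages make, had 45.0, 51.9, 85.4, 56.1 and 90.3 CPM with clodronate and 56.3 to 94.1 CPM (median 71.8) with PBS (-0.17 (SE 0.20, adjusted p = 0.824)). Ccr2, the chemokine receptor of inflammatory monocytes, had 10.3, 17.2, 14.9, 12.8 and 15.7 CPM with clodronate and 15.4 to 81.1 CPM (median 23.1) with PBS, a difference of -0.96 (SE 0.36, unadjusted p = 0.0190, adjusted p = 0.384). Its clodronate values were all below the PBS median. The 3′ end of Csf1r overlaps Hmgxb3.

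Of 20 listed genes of resident perivascular macrophages 19 were tested, 16 had a lower mean with clodronate and 0 passed. At an unadjusted p under 0.05, 4 had a lower mean (F13a1, Pf4, Ltc4s and Igfbp4) and 0 a higher mean, where 6.01% of all genes tested were in that class with a lower mean. The median difference was -0.40, and -0.45 without the lymphoid-rich mice, when all 19 had a lower mean and the median over all genes was -0.10. The list median was -0.59 with the B cell score as a covariate, -0.19 with the adipocyte score and -0.44 with the muscle score. The score was 3.68, 4.19, 4.63, 4.23 and 4.46 in clodronate mice 1 to 5 and 4.08 to 5.05 in the PBS mice, with overlap. Mrc1, the mannose receptor, had 20.5, 31.5, 31.9, 27.6 and 33.2 CPM with clodronate and 28.6 to 56.1 CPM (median 35.9) with PBS (-0.37 (SE 0.20, adjusted p = 0.547)). Folr2, a folate receptor of resident macrophages, had 11, 7.68, 15.4, 9.66 and 11.5 CPM with clodronate and 9.92 to 33.3 CPM (median 13.5) with PBS (-0.40 (SE 0.31, adjusted p = 0.694)), and its 3′ end overlaps Gm10602. Cd163, the receptor for haemoglobin bound to haptoglobin, had 15.2, 16, 16.4, 12.9 and 22.6 CPM with clodronate and 5.06 to 40.2 CPM (median 26.5) with PBS (-0.18 (SE 0.43, adjusted p = 0.919)). The clodronate values of Cd163 lay inside the PBS range.

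Lysosomal genes, through which engulfed liposomes are broken down, had 20 members tested. None passed, 5 had an unadjusted p under 0.05 with a lower mean (Ctsb, Ctsd, Ctsk, Ctsl and Lamp1) and 1 with a higher mean, where 6.01% and 4.5% of all genes tested did. For 3 every clodronate mouse was below every PBS mouse, where 1.01% of all genes were. Ctsd, the protease cathepsin D, had 479.6, 458, 385, 494 and 459 CPM with clodronate and 524 to 727 CPM (median 627) with PBS, a difference of -0.46 (SE 0.13, adjusted p = 0.290). Ctsb, cathepsin B, had 399.7, 393, 346, 357 and 392 CPM with clodronate and 423 to 601 CPM (median 549) with PBS (-0.45 (SE 0.13, adjusted p = 0.290)). Lamp1, a protein of the lysosomal membrane, had 244, 285, 261, 244 and 289.7 CPM with clodronate and 294 to 397 CPM (median 349.9) with PBS (-0.37 (SE 0.12, adjusted p = 0.318)). These are the 3 genes without overlap, and the annotation places another gene at the 3′ end of each (Gm49369, Fdft1 and Grtp1). The median over the list was -0.16, or -0.35 without the lymphoid-rich mice. It was -0.08 without clodronate mouse 2 alone and -0.25 without clodronate mouse 3 alone.

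Other genes of myeloid cells were as follows. Their counts stand beside the 6.01% of all genes tested with an unadjusted p under 0.05 and a lower mean, and 4.5% with a higher mean. Of 10 genes of alternative activation tested, 2 had an unadjusted p under 0.05, both with a lower mean (Mgl2 and Tgm2). Mgl2, a lectin of dermal and adipose macrophages and dendritic cells, had 7.78, 11.4, 8.08, 3.77 and 10.9 CPM with clodronate and 8.87 to 29.95 CPM (median 23.6) with PBS (-1.22 (SE 0.35, adjusted p = 0.290)), while Retnla, a secreted resistin-like protein, had 146, 256, 213, 40.7 and 212 and 45.1 to 309 CPM (median 283) (-0.43 (SE 0.52, adjusted p = 0.825)). Of 10 CC chemokine genes, 2 had an unadjusted p under 0.05, again with a lower mean (Ccl6 and Ccl11), and the list median was -0.41, or -0.04 without PBS mouse 4. Ccl2, which draws monocytes into tissue, had 1.86, 3.01, 3.52, 2.67 and 18.2 CPM with clodronate and 1 to 54.6 CPM (median 5.26) with PBS (-0.48 (SE 0.79, adjusted p = 0.877)). Ccl7, a related monocyte attractant, had 1, 2.43, 5.59, 1 and 6.07 CPM with clodronate and 1.22 to 37.9 CPM (median 5.90) with PBS (-0.88 (SE 0.64, adjusted p = 0.675)), while Ccl8 had 3.65, 9.66, 48.1, 35.3 and 37.3 and 2.80 to 25.5 CPM (median 12.4) (0.66 (SE 0.62, adjusted p = 0.766)). PBS mouse 4 had the highest Ccl2 and Ccl7 of the 11 mice. Only 4 of 20 neutrophil markers were above the floor in enough mice to be tested, 1 of them (Ltf) had an unadjusted p under 0.05, with a lower mean, and S100a8, a calcium-binding protein of neutrophils, had 3.31, 1.41, 2.19, 1.94 and 1 CPM with clodronate and 1 to 2.08 CPM (median 1) with PBS. Cpa3, the mast cell carboxypeptidase, had 7.09, 7.93, 11.1, 5.16 and 18.7 CPM with clodronate and 11.1 to 26.1 CPM (median 18.2) with PBS (-0.84 (SE 0.32, adjusted p = 0.394)), and all 6 eosinophil and mast cell genes tested had a lower mean, 2 of them with an unadjusted p under 0.05. The complement list (16 genes, 2 with an unadjusted p under 0.05 and a higher mean, C3 and Cd55, and 1 with a lower mean, C3ar1) had a median of -0.01, which was 0.04 after upper-quartile scaling. In it C3, the central complement protein, had 381, 502, 443, 388 and 524 CPM with clodronate and 271 to 449 CPM (median 313) with PBS (0.41 (SE 0.16, adjusted p = 0.399)). Genes of iron and heme handling, a task of macrophages, had 12 tested and 0 with an unadjusted p under 0.05, and Hmox1, which breaks down heme, had 14.3, 5.44, 10.1, 6.74 and 9.27 CPM with clodronate and 2.44 to 10.4 CPM (median 5.95) with PBS (0.58 (SE 0.38, adjusted p = 0.629)).

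**Figure D2:**
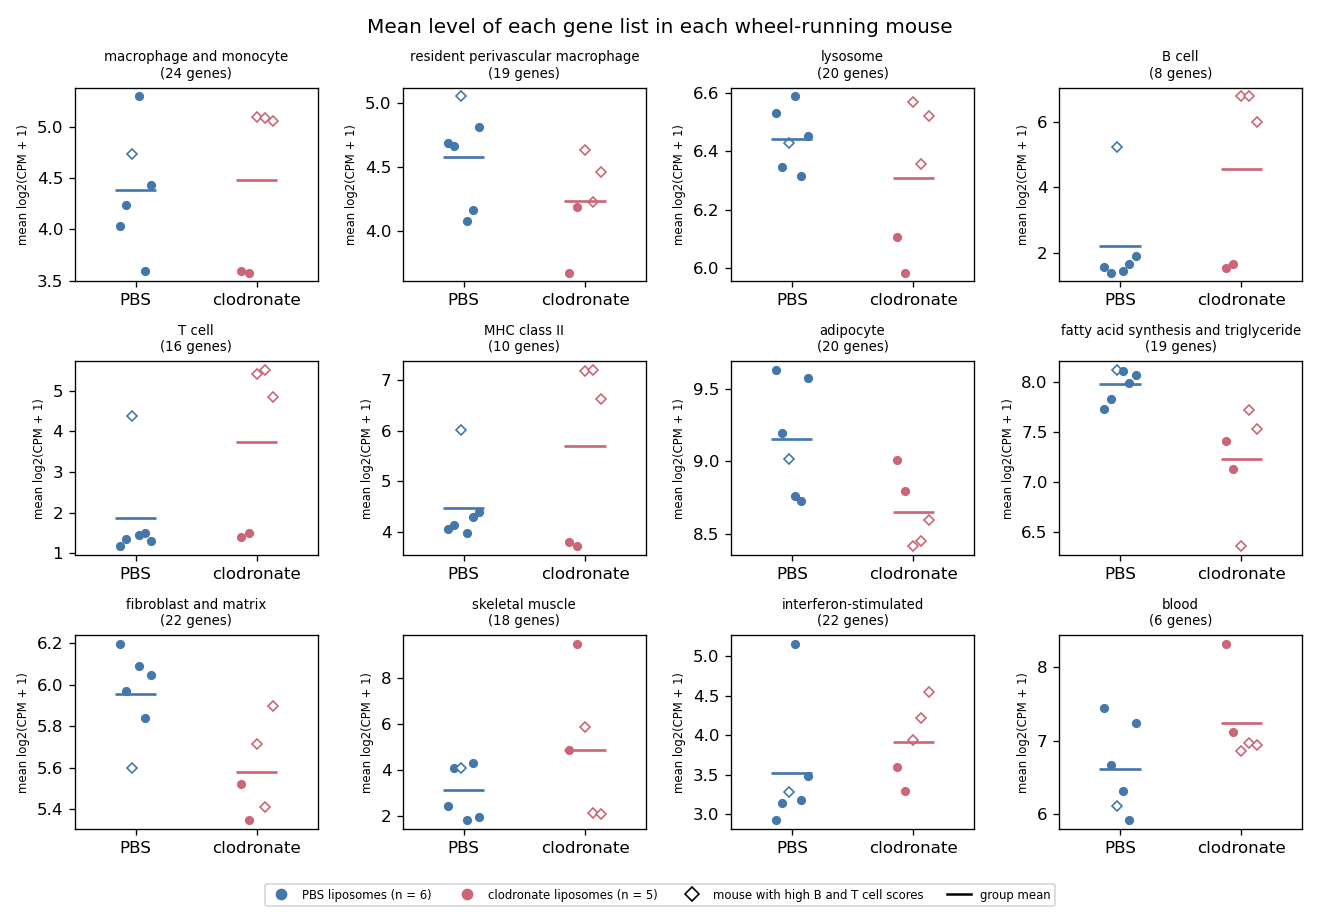
Scores of 12 gene lists, each the mean of log2(CPM + 1) over the genes tested, on the vertical axis, for each wheel-running mouse with PBS (blue, n = 6) or clodronate liposomes (red, n = 5), with bars at the group means and open diamonds for the 4 mice with high B and T cell scores. The macrophage and monocyte score of clodronate mice 1 and 2 (3.59 and 3.58) lies at the bottom of the PBS range and that of mice 3, 4 and 5 (5.06 to 5.10) near its top, while the fatty acid synthesis and triglyceride score of all 5 clodronate mice (6.36 to 7.72) is below that of every PBS mouse (7.73 to 8.11).

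Over all 11 mice, genes of fatty acid synthesis and triglyceride assembly had the lowest of the 33 list medians. Adipocytes and lactating epithelium make fatty acids from acetyl-CoA by this route and store them as triglyceride. Of 20 listed genes 19 were tested, 0 passed, and 14 had an unadjusted p under 0.05 with a lower mean with clodronate, where 6.01% of all genes tested did. The 14 were Acaca, Fasn, Scd1, Scd2, Elovl6, Acly, Me1, Mlxipl, Thrsp, Agpat2, Lpin1, Dgat1, Dgat2 and Acsl1. The median difference was -0.93, and the score was 7.41, 7.13, 6.36, 7.72 and 7.52 in clodronate mice 1 to 5 and 7.73 to 8.11 in the PBS mice. Dgat2, which adds the last fatty acid of triglyceride, lies on chromosome 7 (99153658 to 99182719). It had 431, 267, 232, 645 and 398 CPM with clodronate and 688 to 1086 CPM (median 767) with PBS, a difference of -1.12 (SE 0.23, adjusted p = 0.192), with no overlap between groups. Fasn, the fatty acid synthase, lies on chromosome 11 (120805846 to 120824547) and had 1909, 1601, 582, 3177 and 3067 CPM with clodronate and 2500.1 to 4377 CPM (median 4092) with PBS (-1.10 (SE 0.37, adjusted p = 0.338)). Clodronate mouse 3 was the lowest of the 11 mice, and mice 4 and 5 lay inside the PBS range. Acaca, which makes the malonyl-CoA that Fasn uses, had 166, 209, 57.7, 272 and 292 CPM with clodronate and 205 to 501 CPM (median 383) with PBS (-1.02 (SE 0.35, adjusted p = 0.340)), with the same lowest mouse. Its 3′ end has a near-identical copy in Gm5182, so reads that fit both genes can go uncounted for it. The list median was -0.72 without the lymphoid-rich mice, -0.61 with the adipocyte score as a covariate and -0.70 with the muscle score as a covariate. In the first 2 of these fits other lists were lower, the macrophage and monocyte list without the lymphoid-rich mice (-0.80) and the CC chemokine (-0.76) and replication and mitosis lists (-0.75) with the adipocyte score.

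The start of Fasn is shown because it is 1 of the 3 genes that define that list, with Acaca and Dgat2, and the start of Pf4 because it had the smallest p of the perivascular macrophage list. Both sequences are 300 bases of the reference (RefSeq, GRCm38.p6), from 250 bases before the annotated start to 50 after it, written 5′ to 3′ on the strand of the gene, with CCAAT and its reverse complement ATTGG in capitals. Fasn lies at chr11:120824498-120824797 on the minus strand and Pf4 at chr5:90772185-90772484 on the plus strand.
Fasn: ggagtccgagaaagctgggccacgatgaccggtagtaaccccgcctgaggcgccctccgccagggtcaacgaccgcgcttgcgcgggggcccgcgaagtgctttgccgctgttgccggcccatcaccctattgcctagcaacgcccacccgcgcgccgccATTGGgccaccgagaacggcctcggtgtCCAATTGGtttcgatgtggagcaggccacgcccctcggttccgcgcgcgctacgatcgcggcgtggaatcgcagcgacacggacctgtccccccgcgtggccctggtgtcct
Pf4: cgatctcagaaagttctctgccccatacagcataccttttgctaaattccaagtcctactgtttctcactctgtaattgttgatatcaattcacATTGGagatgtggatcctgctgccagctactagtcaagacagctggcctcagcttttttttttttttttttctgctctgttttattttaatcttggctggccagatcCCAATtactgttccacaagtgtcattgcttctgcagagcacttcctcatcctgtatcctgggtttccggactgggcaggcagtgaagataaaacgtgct
The letters CCAAT, searched on both strands, were found in 37.9% of all 27025 promoters of the same length and in 7 of the 15 promoters given for the list. The E-box CACGTG was found in 7.24% of all promoters and in 0 of the 15, and TATAAA in 14.2% and in 1 (Acacb). The letters TCACNCCAC, the core of a sterol response element, were found in 1.22% of all promoters and in 1 of the 15 (Mlxipl). Among the 10122 tested genes with a promoter given, the shares were 38.3% for CCAAT, 10.2% for CACGTG, 7.42% for TATAAA and 1.08% for TCACNCCAC. The capitals overlap in Fasn, where a CCAAT runs into an ATTGG. The promoter of Acaca, not shown, held none of the 4 motifs, and no promoter sequence is shown for Dgat2.

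All 20 markers of adipocytes were tested and had a lower mean with clodronate, 0 passed, and 11 had an unadjusted p under 0.05, where 6.01% of all genes tested did with a lower mean. The median difference was -0.51, and the score was 9.01, 8.79, 8.41, 8.45 and 8.59 with clodronate and 8.73 to 9.63 with PBS, with overlap. Adipoq, which encodes the hormone adiponectin, had 1599, 1514, 1129, 1104 and 1281 CPM with clodronate and 1144 to 2656 CPM (median 1429) with PBS (-0.29 (SE 0.23, adjusted p = 0.699)). Plin1, the coat protein of lipid droplets, had 523, 367, 317, 332 and 378 CPM with clodronate and 456 to 915 CPM (median 549) with PBS (-0.67 (SE 0.19, adjusted p = 0.290)). Lep, the satiety hormone leptin, had 64.2, 35.3, 56.9, 37.0 and 57.2 CPM with clodronate and 35.1 to 297 CPM (median 72.1) with PBS (-0.95 (SE 0.44, adjusted p = 0.471)), with the highest PBS mouse far above the PBS median. Slc2a4, the insulin-regulated glucose transporter GLUT4, had 74.9, 83.0, 45.3, 79.0 and 77.0 CPM with clodronate and 90.4 to 158 CPM (median 108) with PBS (-0.65 (SE 0.18, adjusted p = 0.275)), with no overlap. Without the lymphoid-rich mice the median of the list was -0.28. The lymphoid-rich clodronate mice had the 3 lowest adipocyte scores of the 11 mice. With that score as a covariate, the fatty acid synthesis and triglyceride median went from -0.93 to -0.61. The fatty acid oxidation median went from -0.38 to -0.11. What lay behind the lower adipocyte scores was not tested.

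Genes of fatty acid oxidation and of the respiratory chain had smaller differences. Of 19 fatty acid oxidation genes tested, 9 had an unadjusted p under 0.05, all with a lower mean (6.01% of all genes tested), and 4 had groups that did not overlap, where 1.01% of all genes did in that direction. Acadm, the medium-chain acyl-CoA dehydrogenase, had 102, 116, 97.8, 99.1 and 102 CPM with clodronate and 127 to 196 CPM (median 144) with PBS, a difference of -0.56 (SE 0.13, adjusted p = 0.203). Acads, its short-chain counterpart, had 38.2, 59.5, 51.5, 46.1 and 43.5 CPM with clodronate and 63.4 to 108 CPM (median 82.7) with PBS (-0.80 (SE 0.18, adjusted p = 0.193)). Both were free of overlap. The list median was -0.38, and -0.16 without the lymphoid-rich mice. Of 23 oxidative phosphorylation genes, 12 had an unadjusted p under 0.05, all with a lower mean (6.01% of all genes tested), with a median of -0.28. Atp5b, the catalytic beta subunit of ATP synthase, had 381, 394, 324, 353 and 348 CPM with clodronate and 425 to 522 CPM (median 463) with PBS (-0.39 (SE 0.11, adjusted p = 0.290)). Cox4i1, a subunit of cytochrome c oxidase, had 328, 315, 292, 295 and 324 CPM with clodronate and 333 to 447 CPM (median 371) with PBS (-0.29 (SE 0.11, adjusted p = 0.399)). Neither overlapped, and these differences were small beside those of the lipid synthesis genes.

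Cholesterol and thermogenic genes were less uniform. A lower mean with an unadjusted p under 0.05 was seen in 6.01% of all genes tested. Of 19 cholesterol genes tested, 3 had an unadjusted p under 0.05, all with a lower mean (Fdft1, whose 3′ end overlaps that of Ctsb, Nsdhl and Sc5d), and the median of -0.39 was -0.12 without the lymphoid-rich mice, -0.18 without PBS mouse 5 alone and -0.20 without clodronate mouse 4 alone. Sc5d, a late enzyme of cholesterol synthesis, had 43.3, 37.5, 36.1, 37.7 and 42.7 CPM with clodronate and 54.9 to 93.3 CPM (median 58.3) with PBS (-0.70 (SE 0.16, adjusted p = 0.194)), with no overlap. Of 12 thermogenic fat genes tested, 2 had an unadjusted p under 0.05 with a lower mean (Prdm16 and Ebf2), and Ucp1 was not tested, since it was above the floor in fewer than 5 mice. Prdm16, a transcription regulator of brown and beige fat, had 9.23, 6.33, 4.44, 4.31 and 7.14 CPM with clodronate and 8.94 to 15.9 CPM (median 12.5) with PBS (-0.91 (SE 0.27, adjusted p = 0.290)).

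The matrix and fibroblast list had a median of -0.52. All 22 genes were tested, 0 passed, 8 had an unadjusted p under 0.05 with a lower mean (Dpt, Col3a1, Col5a1, Col6a1, Fn1, Fbn1, Lum and Sparc), and 2 with a higher mean (Dpp4 and Tnc), where 6.01% and 4.5% of all genes tested did. Dpt, which encodes dermatopontin, a matrix protein of fibroblasts, had 213, 143, 177, 115 and 179 CPM with clodronate and 175 to 426 CPM (median 246) with PBS (-0.68 (SE 0.24, adjusted p = 0.345)). Col1a1, a chain of collagen I, had 291, 130.0, 282, 229.8 and 533 CPM with clodronate and 215 to 482 CPM (median 463) with PBS (-0.56 (SE 0.30, adjusted p = 0.537)). Clodronate mouse 5 was the highest of the 11 mice for Col1a1, and without the lymphoid-rich mice, of which it is 1, the difference was -1.17. Pdgfra, a receptor that marks fibroblasts, had 20.5, 18.6, 22.7, 26.4 and 21.6 CPM with clodronate and 17 to 37.3 CPM (median 24.9) with PBS (-0.17 (SE 0.20, adjusted p = 0.822)). The score was 5.52, 5.35, 5.71, 5.41 and 5.89 with clodronate and 5.60 to 6.2 with PBS, and the median without the lymphoid-rich mice was -0.58.

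Vessel and epithelial markers had list medians of -0.26 and -0.22. Without clodronate mouse 3 alone these were -0.17 and -0.13, and without PBS mouse 3 alone the epithelial median was -0.34. Of 19 endothelial and mural genes, 3 had an unadjusted p under 0.05, all with a lower mean (Esam, Rgs5 and Cspg4), where 6.01% of all genes tested did. Cspg4, the NG2 proteoglycan of pericytes, had 35.9, 25.0, 13.8, 21.7 and 33.7 CPM with clodronate and 34.2 to 74.4 CPM (median 52.7) with PBS (-1.0 (SE 0.25, adjusted p = 0.226)), while Pecam1, a junction protein of endothelium, had 40.1, 57.2, 88.0, 75.3 and 66.6 and 35.8 to 80.0 CPM (median 63.2) (0.10 (SE 0.23, adjusted p = 0.912)). The pericyte gene Rgs5 had 77.7, 56.1, 72.3, 86.5 and 74.7 CPM with clodronate and 76.3 to 177 CPM (median 107) with PBS (-0.61 (SE 0.21, adjusted p = 0.338)). Of 20 epithelial genes tested, 2 had an unadjusted p under 0.05, both with a lower mean (Pgr and Oxtr), beside the same 6.01% of all genes tested. Epcam, a surface protein of epithelium, had 111, 51.1, 41.1, 59.1 and 48.5 CPM with clodronate and 34.4 to 79.4 CPM (median 62.1) with PBS (-0.01 (SE 0.25, adjusted p = 0.996)), and Krt18, a luminal keratin, had 161, 71.7, 84.1, 133 and 116 and 70.6 to 131 CPM (median 118) (-0.02 (SE 0.21, adjusted p = 0.984)). The groups overlapped for both, and clodronate mouse 1 was above every PBS mouse, as was mouse 4 for Krt18. Oxtr, the oxytocin receptor of myoepithelium, had 48.1, 11.7, 19.4, 29.2 and 23.0 CPM with clodronate and 26.4 to 58.1 CPM (median 44.8) with PBS (-0.79 (SE 0.30, adjusted p = 0.384)).

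Skeletal muscle genes ranged widely between single mice. All 18 tested had a higher mean with clodronate, 0 passed and 2 (Tnni2 and Des) had an unadjusted p under 0.05, where 4.5% of all genes tested did with a higher mean. The score was 4.86, 9.47, 5.87, 2.13 and 2.08 in clodronate mice 1 to 5 and 1.81 to 4.32 in the PBS mice. Ckm, the muscle creatine kinase, had 37.3, 1312, 98.3, 2.00 and 2.56 CPM with clodronate and 1.38 to 41.6 CPM (median 7.61) with PBS (2.04 (SE 1.32, adjusted p = 0.617)). Acta1, the actin of skeletal muscle, had 168, 3329.6, 224, 7.35 and 7.67 CPM with clodronate and 5.46 to 127 CPM (median 54.1) with PBS (1.31 (SE 1.29, adjusted p = 0.779)). Clodronate mouse 2 was the highest for both, and mice 4 and 5 lay below the PBS median. Without the lymphoid-rich mice only clodronate mice 1 and 2 remain, and the list median went from 1.78 to 4.5. It was 0.65 without clodronate mouse 2 alone. All 6 red cell genes tested had a higher mean with clodronate, 2 of them with an unadjusted p under 0.05 (Hbb-bt among them), beside the same 4.5% of all genes tested. They were highest in clodronate mouse 1, where Hba-a1, an alpha globin, reached 1078 CPM, and in the group had 1078, 529, 414, 446 and 453 CPM against 250.3 to 712 CPM (median 414) with PBS (0.32 (SE 0.30, adjusted p = 0.763)). Hba-a1 has a near-identical copy in Hba-a2, so reads that fit both genes can go uncounted for it.

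The genes with the smallest p among those with a higher mean were Slc2a3, Ucp2, Cdk9, Mypopos, Btbd11, Mef2c, Rps4x, Trim12a, Tmem131l and Heca, with adjusted p from 0.192 to 0.250. Slc2a3, the glucose transporter GLUT3 of neurons and white blood cells, lies on chromosome 6 (122727809 to 122801640). It had 4.75, 5.18, 7.53, 5.77 and 10.2 CPM in clodronate mice 1 to 5 and 1 to 4.02 CPM (median 1.70) in the PBS mice, 2 of them at the floor, a difference of 1.45 (SE 0.31, adjusted p = 0.192). Cdk9, the kinase of the elongation factor P-TEFb, lies on chromosome 2 (32705784 to 32713076) and had 7.71, 7.68, 11.4, 10.9 and 9.0 CPM with clodronate and 1 to 4.31 CPM (median 3.26) with PBS (1.49 (SE 0.33, adjusted p = 0.193)). Every clodronate mouse was above every PBS mouse for both genes. Ucp2, a mitochondrial carrier abundant in immune cells, lies on chromosome 7 (100493337 to 100502020) and had 71.1, 51.4, 95.8, 97.1 and 64.4 CPM with clodronate and 29.95 to 48.8 CPM (median 40.0) with PBS (0.90 (SE 0.20, adjusted p = 0.193)). It did not overlap either, and its 3′ end is shared with Dnajb13. Trim12a, of the TRIM family of ubiquitin ligases, lies on chromosome 7 (104299894 to 104315466) and had 15.4, 18.9, 33.1, 40.6 and 22.2 CPM with clodronate and 4.84 to 15.2 CPM (median 9.33) with PBS (1.29 (SE 0.32, adjusted p = 0.217)), the last of the 4 without overlap.

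In 6 of these 10 genes the groups overlapped. Mef2c, a transcription factor of muscle and B cells, lies on chromosome 13 (83504034 to 83667080) and had 41.0, 148, 199, 210.4 and 131 CPM with clodronate and 27.2 to 91.1 CPM (median 39.5) with PBS (1.56 (SE 0.38, adjusted p = 0.204)), with its highest PBS value in lymphoid-rich mouse 3. Mypopos, named as the opposite strand of Mypop, whose annotation overlaps its 3′ end, had 2.00, 3.33, 12.6, 10.0 and 7.83 CPM with clodronate and 1 to 2.17 CPM (median 1.11) with PBS (1.59 (SE 0.38, adjusted p = 0.204)). Tmem131l, a membrane protein gene on chromosome 3 (83897655 to 84040175), had 15.3, 15.6, 37.2, 39.9 and 32.1 CPM with clodronate and 5.56 to 18.8 CPM (median 9.76) with PBS (1.32 (SE 0.33, adjusted p = 0.222)). In all 3 the lymphoid-rich clodronate mice had values of 131 CPM or more, 7.83 or more and 32.1 or more, in that order. For Mef2c, clodronate mouse 2, which was not lymphoid-rich, also reached 148 CPM, above lymphoid-rich mouse 5. Btbd11, a BTB domain gene on chromosome 10 (85386814 to 85660292), had 4.41, 9.66, 4.74, 9.11 and 4.37 CPM with clodronate and 1 to 5.61 CPM (median 1.03) with PBS (1.52 (SE 0.36, adjusted p = 0.204)), overlapping through PBS mouse 2 alone. Heca, on chromosome 10 (17868612 to 17948067), had 46.7, 49.5, 52.0, 44.2 and 36.4 CPM with clodronate and 14 to 38.3 CPM (median 24.5) with PBS (0.86 (SE 0.22, adjusted p = 0.250)). Rps4x, a ribosomal protein gene on chromosome X (102184941 to 102189394), had 78.0, 66.9, 116, 104 and 73.7 CPM with clodronate and 37.3 to 69.0 CPM (median 51.5) with PBS (0.75 (SE 0.18, adjusted p = 0.211)), and 4 other genes hold near-identical copies of its 3′ end. Without the lymphoid-rich mice the differences were 1.04 for Slc2a3, 1.13 for Cdk9, 0.67 for Ucp2, 0.91 for Trim12a, 1.08 for Mef2c, 0.57 for Mypopos, 1.57 for Btbd11, 0.78 for Heca, 0.78 for Tmem131l and 0.59 for Rps4x.

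**Figure D3:**
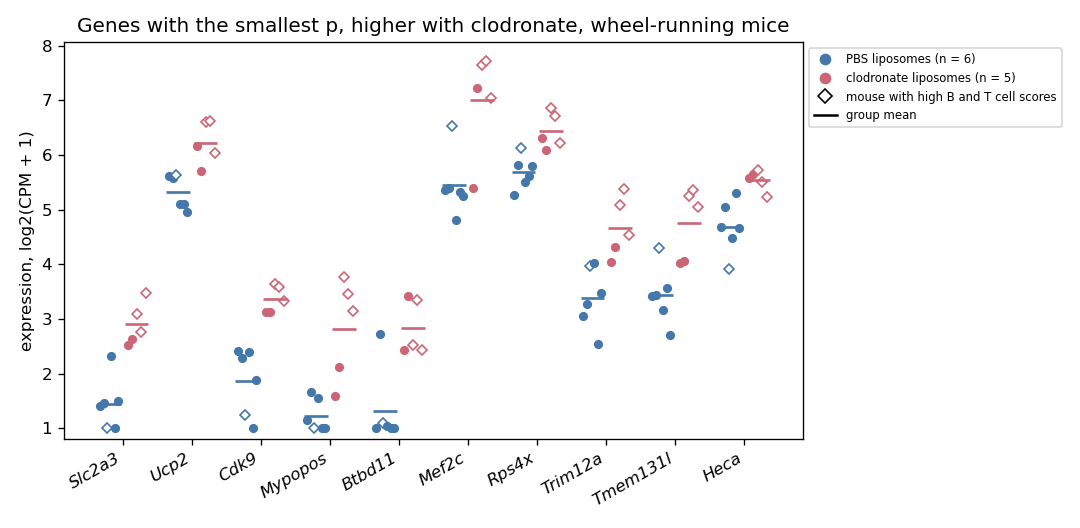
Expression of the 10 genes with the smallest p among those higher with clodronate, as log2(CPM + 1) on the vertical axis, 1 point for each wheel-running mouse (5 with clodronate in red, 6 with PBS in blue), with bars at the group means and open diamonds for the 4 mice with high B and T cell scores; a value of 1 is the floor. Groups are apart for Slc2a3, Ucp2, Cdk9 and Trim12a, and in Mypopos the red diamonds (7.83 to 12.6 CPM) lie above the red circles (2.00 and 3.33 CPM).

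B and T cell genes, by whose scores the lymphoid-rich mice were set apart, had the highest list medians over all 11 mice. Of 15 B cell genes 8 were tested and 4 had an unadjusted p under 0.05, all with a higher mean (Pax5, Ighd and Vpreb3 among them), with a median of 2.59. Of 18 T cell genes 16 were tested and 10 had an unadjusted p under 0.05, all with a higher mean, where 4.5% of all genes tested did, and the median was 1.94. Cd3e, a chain of the T cell receptor complex, had 1, 5.25, 34.1, 37.8 and 18.1 CPM with clodronate and 1 to 15.8 CPM (median 1.54) with PBS (1.90 (SE 0.75, adjusted p = 0.403)). Of 7 genes of lymph node stroma and vessels tested, 0 had an unadjusted p under 0.05. Glycam1, a mucin of lymph node venules, had 1.72, 3.77, 686, 985 and 499 CPM with clodronate and 1.42 to 943 CPM (median 2.34) with PBS (3.38 (SE 1.79, adjusted p = 0.535)), and Cxcl13, the chemokine of B cell follicles, had 1, 1, 70.9, 92.2 and 35.2 and 1 to 37.9 CPM (median 1) (2.21 (SE 1.10, adjusted p = 0.504)). The high values of all 3 genes came from clodronate mice 3, 4 and 5 and PBS mouse 3. Without these 4 mice the list medians were 0.03 for B cells, 0.01 for T cells and -0.07 for lymph node stroma and vessels. The fall of the B and T cell medians was fixed in advance, since the 4 mice were chosen by those scores.

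Antigen presentation, cytotoxic and plasma cell genes were also high in the lymphoid-rich clodronate mice. Over all genes tested, 4.5% had an unadjusted p under 0.05 with a higher mean. All 10 MHC class II genes had a higher mean with clodronate, 0 with an unadjusted p under 0.05, and their median of 1.04 was -0.31 without the lymphoid-rich mice, when all 10 had a lower mean. H2-Aa, a class II chain, had 147, 124, 972, 928 and 651 CPM with clodronate and 118 to 442 CPM (median 176) with PBS (1.07 (SE 0.53, adjusted p = 0.505)). Of 7 plasma cell genes tested, 3 had an unadjusted p under 0.05, with a higher mean (Jchain, Igkc and Ighg2c). Jchain, which joins secreted IgM and IgA, had 1, 1.79, 23.5, 17.8 and 16.6 CPM with clodronate and was at the floor in 5 of 6 PBS mice (1.97 (SE 0.59, adjusted p = 0.290)). Of 5 NK and cytotoxic genes tested, 2 did (Prf1 and Klrk1). Prf1, the pore protein of cytotoxic cells, had 1, 2.69, 6.44, 2.85 and 1.97 CPM with clodronate and 1 to 1.20 CPM (median 1) with PBS (0.82 (SE 0.28, adjusted p = 0.340)). For dendritic cells, 13 genes were tested, 1 (Siglech) had an unadjusted p under 0.05, with a higher mean, and the list gave a median of 0.39, and -0.18 without the lymphoid-rich mice. Without 1 mouse it ranged from 0.14 (without clodronate mouse 4) to 0.62 (without PBS mouse 3). In that list Zbtb46, a transcription factor of conventional dendritic cells, had 7.44, 7.29, 3.16, 11 and 7.25 CPM with clodronate and 5.73 to 10.7 CPM (median 8.89) with PBS (-0.29 (SE 0.31, adjusted p = 0.80)), and Flt3, a growth factor receptor of their precursors, had 1, 1, 6.93, 6.74 and 2.66 and 1 to 6.53 CPM (median 1) (0.39 (SE 0.49, adjusted p = 0.838)).

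**Figure D4:**
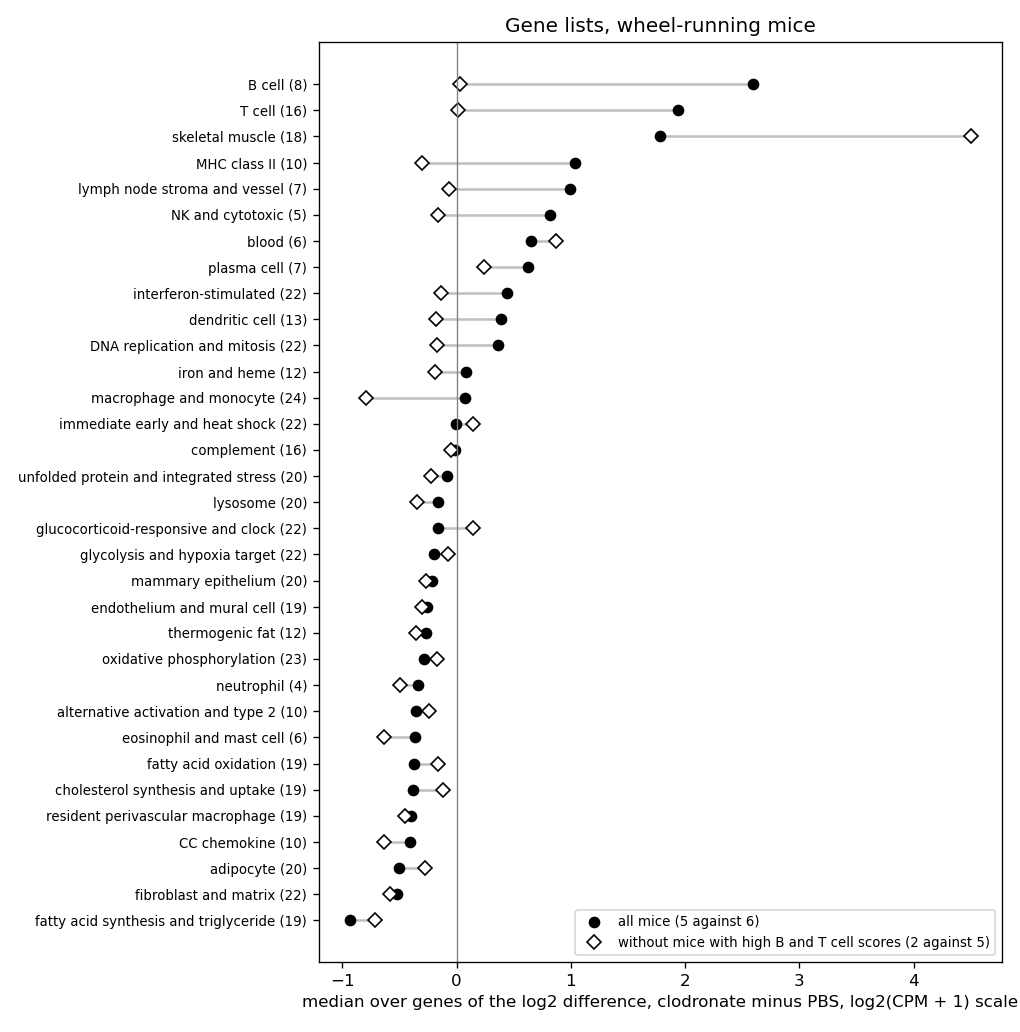
Median over the genes of each of 33 lists (number of genes tested in parentheses) of the difference clodronate minus PBS in wheel-running mice, on the log2(CPM + 1) scale of the horizontal axis, for all mice (filled circles, 5 against 6) and without the 4 mice with high B and T cell scores (open diamonds, 2 against 5). The B cell and T cell medians go from 2.59 and 1.94 to 0.03 and 0.01, which the choice of mice by those scores fixed in advance. The macrophage and monocyte median goes from 0.07 to -0.80, while fatty acid synthesis and triglyceride genes go from -0.93 to -0.72.

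None of the interferon, proliferation, hypoxia and stress genes passed the test. At an unadjusted p under 0.05, 4.5% of all genes tested had a higher mean and 6.01% a lower mean. Of 22 interferon-stimulated genes, 1 had an unadjusted p under 0.05, with a higher mean, and the median of 0.44 was -0.13 without the lymphoid-rich mice. It was 0.84 without PBS mouse 4, 0.28 without PBS mouse 1 and 0.26 without clodronate mouse 5. Isg15, a ubiquitin-like protein induced by interferon, had 19, 11.8, 19, 30.3 and 43.7 CPM with clodronate and 5.02 to 96.8 CPM (median 14.1) with PBS (0.49 (SE 0.57, adjusted p = 0.821)), with the highest value in PBS mouse 4. Of 22 replication and mitosis genes 0 had an unadjusted p under 0.05, and Top2a, a topoisomerase of dividing cells, had 28.9, 19.3, 85.1, 58.2 and 61.4 CPM with clodronate and 3.30 to 131 CPM (median 29.3) with PBS (0.83 (SE 0.67, adjusted p = 0.704)). Of 22 glycolysis and hypoxia target genes, 1 had an unadjusted p under 0.05, Pgam1, with a lower mean near the floor (1.03, 1, 1.22, 1.21 and 1.54 CPM with clodronate and 1.65 to 4.51 CPM (median 2.65) with PBS, -0.82 (SE 0.23, adjusted p = 0.288)). Vegfa, a hypoxia-induced growth factor of vessels, had 60.8, 61.1, 35.4, 35.1 and 39.6 CPM with clodronate and 43.3 to 75.3 CPM (median 51.4) with PBS (-0.22 (SE 0.20, adjusted p = 0.748)).

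Beside the counts below, 6.01% of all genes tested had an unadjusted p under 0.05 with a lower mean. In the glucocorticoid and clock list (22 genes), 1 had an unadjusted p under 0.05, Dbp, a clock output gene with a lower mean (82.2, 86.4, 43.3, 60.3 and 69.5 CPM with clodronate and 60.9 to 134 CPM (median 102) with PBS, -0.55 (SE 0.22, adjusted p = 0.400)), whose 3′ end overlaps Sphk2. Fkbp5, which glucocorticoids induce, had 26.6, 30.8, 34.8, 35.7 and 52.2 CPM with clodronate and 20.5 to 42.8 CPM (median 25.7) with PBS (0.31 (SE 0.24, adjusted p = 0.687)). Of 22 immediate early and heat shock genes, 1 had an unadjusted p under 0.05, Fos, a transcription factor gene with 14.1, 6.27, 9.84, 9.41 and 5.86 CPM with clodronate and 8.28 to 22.7 CPM (median 15.3) with PBS (-0.70 (SE 0.31, adjusted p = 0.454)). The median of that list was -0.01, and 0.04 after upper-quartile scaling. Of 20 genes of the unfolded protein and integrated stress responses, 2 had an unadjusted p under 0.05, both with a lower mean (Calr and Trib3). Trib3, a pseudokinase gene induced by stress, had 2.48, 3.01, 5.53, 1.21 and 2.02 CPM with clodronate and 4.73 to 11.1 CPM (median 8.45) with PBS (-1.24 (SE 0.34, adjusted p = 0.267)), and Hspa5, the chaperone BiP, had 224, 186, 293, 276 and 317 and 210.0 to 354 CPM (median 278) (-0.08 (SE 0.17, adjusted p = 0.909)).

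Whether clodronate liposomes did the same in sedentary mice was asked with an interaction term over all 22 mice. For 0 of 13612 genes (0%) did the difference in wheel-running mice depart from that in sedentary mice at an adjusted p under 0.05, and 1056 genes (7.76%) reached an unadjusted p under 0.05, with 884 positive values (a higher clodronate difference on the wheel) and 172 negative ones. Without the lymphoid-rich mice, and without sedentary PBS mouse 2, which was also rich in B and T cell genes, the count was 518. Without clodronate mouse 3 alone it was 699. Smc6, Trpv2 and Cdk9 were among the positive genes with the smallest p, and Loxl1 and Synpo among the negative. Cdk9 differed by 1.49 on the wheel and by -0.64 in sedentary mice, an interaction of 2.13 (SE 0.47, adjusted p = 0.523). Trpv2, a cation channel of immune cells on chromosome 11 (62574486 to 62600515), had 5.17, 4.09, 14.6, 10.3 and 11.6 CPM with clodronate and 1 to 5.21 CPM (median 2.25) with PBS on the wheel, a difference of 1.48 against -0.63 in sedentary mice (2.11 (SE 0.46, adjusted p = 0.523)). Parts of its 3′ end also occur in 3 other genes. Smc6, a subunit of the SMC5/6 DNA repair complex on chromosome 12 (11265886 to 11319785), had 90.6, 88.1, 133, 117 and 113 CPM with clodronate and 69.3 to 90.4 CPM (median 85.9) with PBS, a difference of 0.35 against -0.60 in sedentary mice (0.95 (SE 0.19, adjusted p = 0.523)). In these 3 genes a higher mean with clodronate on the wheel stood beside a lower mean in sedentary mice.

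Among the negative interactions, Loxl1 differed by -0.92 on the wheel and by -0.02 in sedentary mice (-0.90 (SE 0.23, adjusted p = 0.547)). Synpo, the actin-associated protein synaptopodin, had 26.9, 19, 11.4, 11.2 and 13.1 CPM with clodronate and 14.4 to 22.3 CPM (median 21.1) with PBS, a difference of -0.30 against 0.98 (-1.28 (SE 0.37, adjusted p = 0.572)). Of the genes with the smallest p on the wheel, Ppp2r5a, Dab2, Col6a3 and Pf4 differed by -0.62, -0.55, -0.63 and -0.41 in sedentary mice, and Slc2a3 and Ucp2 by -0.39 and -0.04. Of the other named genes higher on the wheel, Btbd11, Mef2c, Heca and Tmem131l differed by 0.60, 0.20, 0.07 and 0.04 there. Trim12a, Mypopos and Rps4x differed by -0.42, -0.36 and -0.30, and Cdk9 by -0.64.

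The gene lists were set side by side for wheel-running and sedentary mice. An unadjusted interaction p under 0.05 was reached by 7.76% of all genes tested. The fatty acid synthesis and triglyceride list had a median of -0.93 on the wheel and -0.92 in sedentary mice, with 0 of 19 genes at an unadjusted interaction p under 0.05. The perivascular macrophage list had -0.40 and -0.41, also with 0 of 19. The macrophage and monocyte list had 0.07 on the wheel and -0.60 in sedentary mice. In it 2 of 24 genes had an unadjusted interaction p under 0.05, near the share of all genes tested. B cell genes had 2.59 and -0.76, with 7 of 8 at that level, and T cell genes 1.94 and -0.51, with 8 of 16. Without the lymphoid-rich mice of both kinds, chosen by their B and T cell scores, the median interactions were 0.28 for B cell genes and -0.08 for T cell genes. The median interaction of the macrophage and monocyte list was 0.58 over all mice and -0.26 without them, the other direction. Over all genes tested the median difference in sedentary mice was -0.12, with a lower mean in 9122 of the 13612. Of the 818 genes with a lower mean and an unadjusted p under 0.05 on the wheel, 680 had a lower mean in sedentary mice, and of the 612 with a higher mean 181 had a higher mean there.

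**Figure D5:**
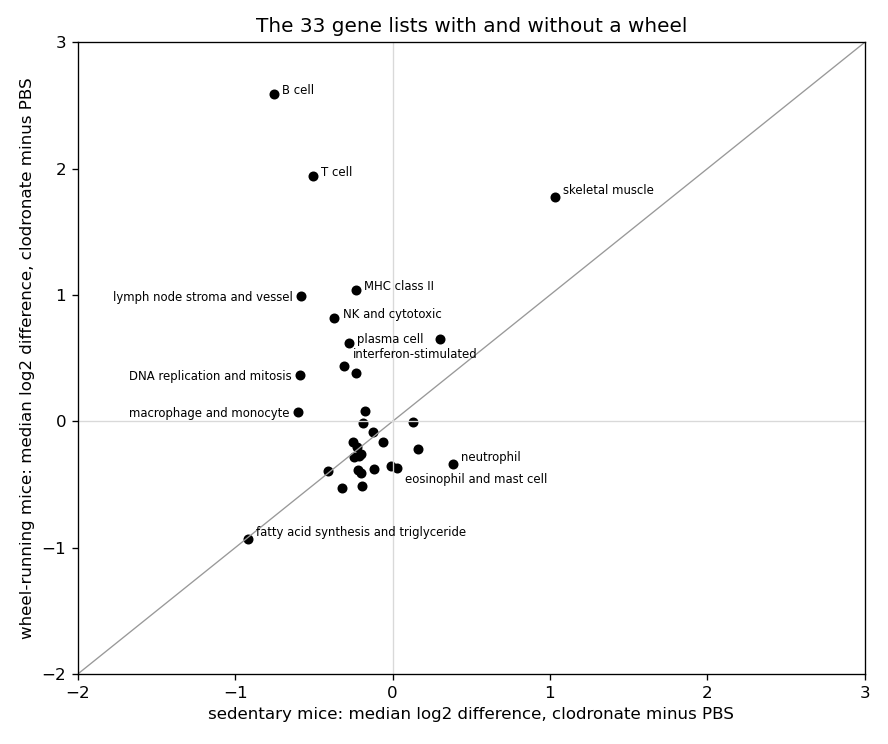
Median difference clodronate minus PBS over the genes of each of 33 lists, on the log2(CPM + 1) scale, in wheel-running mice (vertical axis, 5 against 6) and sedentary mice (horizontal axis, 5 against 6), with a grey line where both are equal. B cell (2.59 against -0.76) and T cell genes (1.94 against -0.51) lie far above the line, and fatty acid synthesis and triglyceride genes (-0.93 against -0.92) on it.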

How the data were processed

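The authors made 1 QuantSeq library, which reads 3′ ends of transcripts, from each dissected mammary tissue. Per the labels, reads were mapped to the mouse genome with STAR 2.5.3a (GRCm38, from the submitters' processing notes) and given in CPM; the counting tool and annotation are not given in the sources used here. The deposited signal per gene is CPM with values under 1 raised to 1, relative to all reads, since unmapped, multimapping, no-feature and ambiguous reads have rows of their own. These 4 rows were set aside. Above the floor 100% of values in the 11 mice were whole multiples of the value of 1 read (tolerance 0.1 reads), which gave the depth of each library. No count model was fitted, because the floor hides the lowest counts, and it limits the precision of low values. Of repeated rows of the same symbol (106 symbols) only that with the highest mean entered, and 94.5% of symbols were found in GENCODE M21. Of the symbols tested, 18 look like dates, as a spreadsheet makes of some gene names.

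Mice were grouped by the labels, and p-values measure the spread between mice. Genes above 1 CPM in at least 5 of the 11 mice were tested on the log2(CPM + 1) scale with limma 3.58.1 (R 4.3.3; moderated by eBayes, variance trend on, two-sided, Benjamini-Hochberg over 13612 genes), with the 2 wheel-running groups alone, or with all 4 groups for the interaction. Library measures were compared by exact permutation in Python 3.11.15 (numpy 2.4.6, pandas 2.3.3). The limma step was tested on simulated data. Near-identical 3′ ends were matches of at least 97% over at least 100 of the last 400 bases of a transcript.

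Members, gene lists (33) and rules were chosen with earlier results of these data known. With no gene past the threshold, the genes named were the 10 in each direction with the smallest unadjusted p and a mean of at least 5 CPM in a group, leaving out predicted genes and pseudogenes, the defining member and the smallest p of each list, and up to 3 genes in each direction for the interaction, 125 in all. Some of these are not reported here. Other list members are named where they make up a count. Alternatives were pseudocounts of 0 and 5, other filters, upper-quartile scaling, scaling to reads assigned to genes, no variance trend, all 4 groups in the fit, the B cell score as a covariate, leaving out lymphoid-rich mice (B and T cell scores both more than 2 above the median of the 11 mice), a fit without each mouse in turn, and a block for the replicate number. The adipocyte and muscle scores as covariates were added after seeing the data. For the lymphoid-rich choice and the covariates, scores were taken over all listed genes in the data.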

Additional observations from a re-analysis of the deposited data

Results flagged for a closer look

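Measures of the 11 wheel-running mice (gene list scores, library measures and the genes with the smallest p) were screened for a mouse far from the rest of its group. Of 128 groups tested over 64 measures 13 had such a mouse, where chance gives about 6.4 if measures are independent. They are not, since PBS mouse 3, set apart by its B and T cell scores, was flagged in several lymphoid lists. The 13 therefore cannot be judged against 6.4. Scores and gene values below are on the log2(CPM + 1) scale.

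PBS mouse 3 stood above the other PBS mice in lymphoid lists. Its score was 3.55 for dendritic cells (next mouse 2.30), 6.02 for MHC class II (4.4), 5.23 for B cells (1.91), 4.38 for T cells (1.5) and 5.18 for lymph node stroma and vessels (2.44). In Mef2c it had 6.52, with 5.40 in the next mouse.

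PBS mouse 4 had an interferon-stimulated score of 5.16 (next mouse 3.48) and a Slc2a3 value of 2.33 (1.49). PBS mouse 2 had a Btbd11 value of 2.72 (1.09), and PBS mouse 5 a low Smc6 value of 6.13, where the next was 6.39. Among clodronate mice, mouse 1 had a mammary epithelium score of 5.59 (next mouse 5.02) and a blood score of 8.32 (7.12). Clodronate mouse 5 had an Fbn1 value of 4.98 (4.19).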

How the results depend on the processing

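The count of 0 genes in the comparison on the wheel held under 12 of 13 other settings and in the 11 fits without 1 mouse (0 to 0 genes, smallest adjusted p from 0.0730 to 0.470). The exception was no filter on low values, which gave 1 gene there and 1 in the interaction, Gm7536 in both (adjusted p 0.00714 and 7.79e-06), with 1.93, 2.24, 2.19, 2.25 and 2.5 CPM in clodronate mice and the floor in PBS mice except for 1.13 CPM in mouse 3. Gm7536 was above 1 CPM in every clodronate mouse, so it was also among the 13612 genes tested with the filter, where it did not pass. Why it passed only in the fit with no filter was not tested. Genes at an unadjusted p under 0.05 numbered 1149 to 1823 under those settings and 985 to 1868 without 1 mouse. Their share with a higher mean, 42.8%, was 58.07% with upper-quartile scaling, 59.44% with scaling to assigned reads, 54.8% with the muscle score as a covariate, 31.59% without lymphoid-rich mice, 54.35% without clodronate mouse 1 and 53.96% without clodronate mouse 2. For the interaction the 1056 genes at that level became 635 with the B cell score as a covariate, 518 without lymphoid-rich mice and 699 to 1542 without 1 mouse, the lowest without clodronate mouse 3, with 0 to 0 passing.

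The share of reads assigned to genes ranged from -3.43 to -2.34 percentage points without 1 mouse. With the replicate block it was -2.34 (exact sign-flip permutation of 5 pairs, p = 0.0625, the smallest they can give). Same-numbered mice had deviations correlated at 0.103, 0.426, 0.283, 0.266 and -0.395, and 2 of the 5 correlated best with their own number. The mouse numbers of the labels skip a mouse before clodronate replicate 5, so its place may not match that of PBS replicate 5. Whether the numbers pair mice cannot be decided by this check. With the replicate block 1319 genes had an unadjusted p under 0.05, 1012 in the interaction, and 0 passed. The median of the macrophage and monocyte list ranged from -0.20 without clodronate mouse 3 to 0.30 without clodronate mouse 1. The medians of the complement (-0.10 to 0.04), immediate early and heat shock (-0.20 to 0.21) and unfolded protein lists (-0.14 to 0.02) also crossed 0 without 1 mouse. For the 125 named genes, 76 of 1375 differences under the other settings and 30 of 1375 without 1 mouse had the other direction, and 0 passed. Depth limits the precision of genes close to the floor, such as Pgam1, Slc2a3 and Mypopos.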
